A study of Mus musculus with 4 samples.

Results

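The genes described here are 29 type I interferon response genes, taken from a list of interferon-stimulated genes and their regulators by matching the symbols of the deposited gene count table. All 29 symbols were found among the 24411 in the table, and all 29 passed the low-count filter that left 12810 genes for testing. RNA sequencing read counts were measured in the sublingual gland, a mucous gland of the mouth, of female C57BL/6J mice. Every library carried the genotype Nkx2.3-/-, a loss of the homeobox gene Nkx2-3. Glands were sampled at 8 weeks (2 libraries, replicates 1 and 2) and 32 weeks (2 libraries, replicates 3 and 4). CPM and counts below are given in the order of replicates 1 and 2 (the younger libraries), then 3 and 4 (the older). Age is the factor that the labels vary, and a gland with intact Nkx2-3 was not analysed here. The labels do not say whether a library is 1 animal or a pool, and the p-values hold only for the spread between the libraries at hand, which may be technical.

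Type I interferons are secreted proteins that cells release when they sense foreign or misplaced nucleic acid. Binding to the receptor Ifnar1-Ifnar2 activates the kinases Jak1 and Tyk2, and the transcription factor ISGF3, which contains Stat2 and Irf9, then enters the nucleus and binds the interferon-stimulated response element in the promoters of its targets. Many of these targets are transcribed at a low basal level without infection, and several of them (Stat2, Irf9, Irf7, the cytosolic sensors) are themselves parts of the pathway. Salivary glands are a common site of viral persistence, and raised interferon response genes are a known feature of salivary gland autoimmunity.

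The promoter sequences below show the response element as it occurs in some of the members. Windows from 250 bases before to 50 bases after the start were given by RefSeq (build GRCm38.p6) for 19 of the 29 genes, with 21 promoters among them. No entry was found for Dhx58, Zbp1, Oas1b, Oas2, Usp18, Mx1, Mx2, Ifi27l2a, Rtp4 and Parp14. The core of the response element was searched on both strands as GAAANNGAAA, and 11 of the 21 member promoters held a match (52.4%), against 3.44% of all 32851 promoters of that length and 3.01% of the promoters of genes tested. Other interferon-stimulated genes, from a longer list, held a match in 23 of 61 promoters. The gamma-activated site, searched as TTCNNNGAA, was matched in 3 of the 21 (Bst2, Ifit2 and Oas1a; 14.3%), against 8.30% of all promoters. The 2 motifs can overlap, as they did in Bst2, where a gamma-activated match began at -136 and a response element match at -130. A match is a run of letters and not a measured binding site. Excerpts from 6 promoters follow, because they show the element in several arrangements, each 120 bases long and written 5′ to 3′ along the gene, with the response element matches in capitals and those on the opposite strand shown as their reverse complement.

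Isg15 (GRCm38.p6 chr4:156200819-156200938, minus strand): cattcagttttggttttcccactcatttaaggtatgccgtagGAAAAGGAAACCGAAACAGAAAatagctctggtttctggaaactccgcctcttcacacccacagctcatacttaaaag
Ifit1 (GRCm38.p6 chr19:34640769-34640888, plus strand): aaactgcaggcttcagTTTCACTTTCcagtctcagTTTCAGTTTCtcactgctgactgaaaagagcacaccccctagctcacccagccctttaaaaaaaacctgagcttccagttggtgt
Ifit3 (GRCm38.p6 chr19:34583363-34583482, plus strand): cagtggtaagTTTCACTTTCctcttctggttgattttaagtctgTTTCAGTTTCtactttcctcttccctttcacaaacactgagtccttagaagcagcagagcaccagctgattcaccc
Oas1a (GRCm38.p6 chr5:120907526-120907645, minus strand): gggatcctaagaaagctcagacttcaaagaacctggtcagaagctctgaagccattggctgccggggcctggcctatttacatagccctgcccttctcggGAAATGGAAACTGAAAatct
Oas1g (GRCm38.p6 chr5:120887614-120887733, minus strand): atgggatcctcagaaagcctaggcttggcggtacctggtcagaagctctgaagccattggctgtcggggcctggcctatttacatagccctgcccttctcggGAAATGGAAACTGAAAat
Stat2 (GRCm38.p6 chr10:128270266-128270385, plus strand): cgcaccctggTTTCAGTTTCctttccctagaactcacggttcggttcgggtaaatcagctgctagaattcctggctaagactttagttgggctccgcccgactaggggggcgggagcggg

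Isg15 held 3 overlapping matches, starting at -78, -72 and -66 from the start site, while Ifit1 held 2, at -104 and -85, and Ifit3 held 2, at -156 and -122. Oas1a and Oas1g, neighbouring gene copies, each held a pair of overlapping matches close to the start, from -20 and -14 in Oas1a and from -18 and -12 in Oas1g. Stat2 held 1 match, at -222. The matches of Ddx58 and Ifih1 lay past the start, and the remaining promoters with a match were those of Bst2, Oas3 and Rsad2.

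Library depth ran from 12925869 to 16484772 counts. Nkx2-3 itself had 31 and 28 counts at 8 weeks and 21 and 29 counts at 32 weeks; the part of the gene removed was not given in the sources used here. All 10 listed acinar and demilune markers of the sublingual gland were detected, among them Muc19, its gel-forming mucin, at 12012 to 20267 CPM. Sublingual tissue was thus present, and an admixture of neighbouring tissue was not tested. No gene of the table passed the age test in edgeR (0% of 12810 genes at an adjusted p of 0.05, with 174 at an unadjusted p under 0.05). DESeq2 called 3 genes and limma-voom called 0, none of them an interferon response gene.

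Several members have close copies or overlapping neighbours, which limits how their counts can be read, since how shared reads were counted was not given in the sources used here. Of all 50-base windows in the longest coding transcript, 57.1% of those of Oas1a also occurred in another gene's transcripts, most of them in Oas1g, and 54.6% of those of Oas1g. For Ifit3 the share was 51.5%, all with the neighbouring copy Ifit3b (named I830012O16Rik in the annotation). For Ifi27l2a it was 40.8%, with Ifi27l2b, which also shares 215 of its 463 exon bases on the same strand. The remaining members shared 7.13% of windows or fewer. Ifit3b was counted at 24 and 36 reads at 8 weeks and 40 and 18 at 32 weeks, and Ifi27l2b at 2 and 0 reads and 4 and 0 reads.

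Basal levels were low to middling, apart from Ifi27l2a. Levels are compared between genes in TMM-scaled CPM (counts set against library size) per kilobase of transcript (CPM per kb), averaged over the 4 libraries with the SD between them (n = 4). The median of the 29 members was 2.67 CPM per kb, against 3.58 for all genes tested, and 10 of the 29 lay above the median of all genes. Ifi27l2a, which encodes a small membrane protein induced by interferon, stood at 266 ± 158 CPM per kb. It was at percentile 98.7 of 12090 tested genes with a known transcript length, and made up 72.0% of the summed level per kb of the 29. Its transcript is short (463 bases). Of the members' summed CPM it made up 24.6% and 27.9% in the younger and 44.5% and 28.0% in the older libraries. Next per kb came Rtp4, a Golgi chaperone with antiviral activity, at 16.9 ± 5.47 CPM per kb. Bst2, the tetherin that holds budding virus on the cell surface, followed at 10.4 ± 1.89, Irf9 at 10.2 ± 3.44, and Usp18, the protease that removes Isg15 from proteins, at 8.72 ± 3.70. The order among Bst2, Irf9 and Usp18 lay within their spread. Stat2 (5.09 ± 0.701), Irf7 (5.18 ± 1.53) and Isg15 (4.44 ± 0.665) came a little lower, still above the median of all genes, and did not differ beyond their spread. Least abundant were Rsad2 (0.555 ± 0.0646), Oas2 (0.554 ± 0.183), Cmpk2 (0.487 ± 0.10), Oasl1 (0.469 ± 0.111) and, last, Oas3 (0.130 ± 0.0813, percentile 0.761). From Oas3 to Ifi27l2a the mean level per kb spanned 2037-fold.

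**Figure D1:**
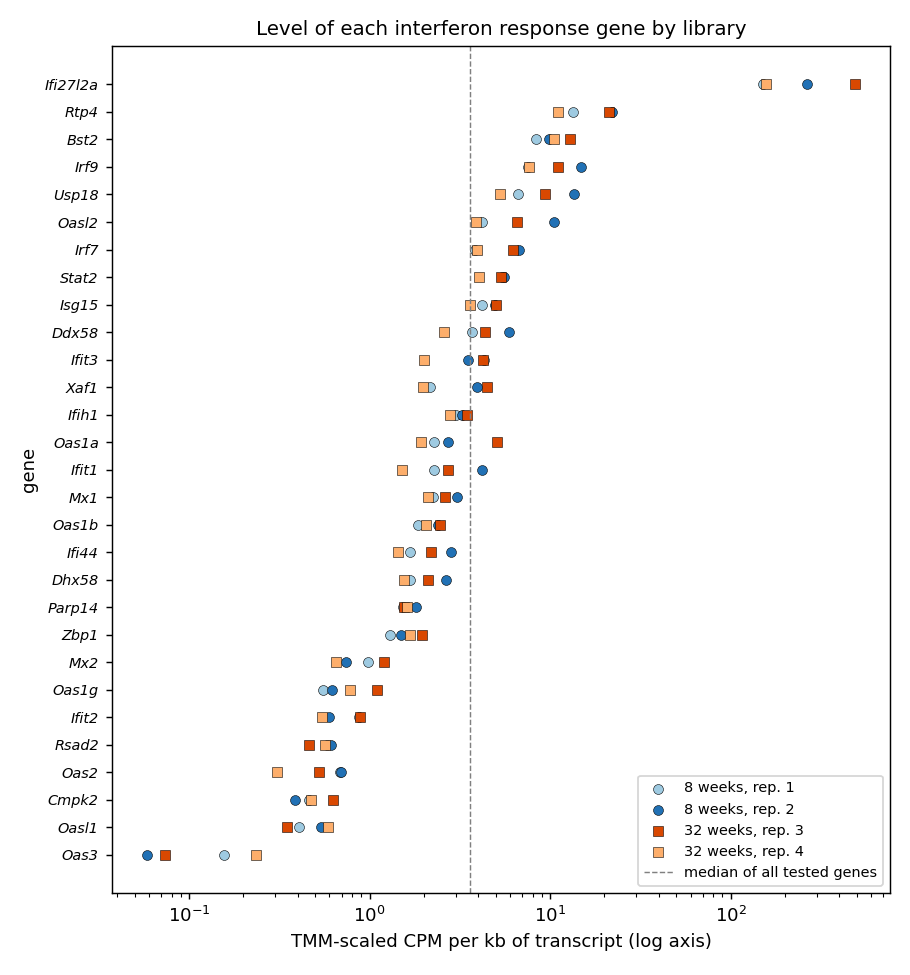
Level of each of the 29 genes in each library, as TMM-scaled CPM per kb of transcript on a log axis; circles are the 8-week and squares the 32-week libraries, and the dashed line is the median of all tested genes. Ifi27l2a stands far to the right at 151 to 489 CPM per kb, Oas3 far to the left, and 10 genes have a mean above the dashed line.

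The comparison of 32 with 8 weeks asked whether the basal interferon response of the gland differs with age. None of the 29 genes passed the test: the smallest unadjusted p was 0.0978 (Oas2), and the edgeR adjusted p was at least 0.999 for each member, where 0% of all genes tested were called. Fold changes (32 weeks over 8 weeks, log2) were negative in 19 genes and positive in 10, with a median of -0.08, and over all genes tested the median was -0.01 and 48.3% were positive. Every 95% interval included 0, and the median interval of a member reached 0.82 to either side, against 0.61 over all genes. The intervals were tightest for Ifih1 (-0.47 to 0.47), Parp14 (-0.57 to 0.39) and Stat2 (-0.72 to 0.26), and widest for Oas3 (-1.20 to 2.31).

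The balance of signs rested on single libraries. Without 8-week replicate 2, 21 members were positive (median 0.13), and without 32-week replicate 4 the count was 15 (median 0.12). Leaving out 32-week replicate 3 left 6 positive (median -0.40), and leaving out 8-week replicate 1 left 9 (median -0.20). Both 32-week libraries lay above both 8-week libraries for 4 of the 29 genes (Zbp1, Oas1g, Cmpk2 and Bst2), where 14.4% of all genes tested did so. They lay below both for 3 (Stat2, Oas2 and Rsad2), where 14.2% did. The ages overlapped in the other 22.

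**Figure D2:**
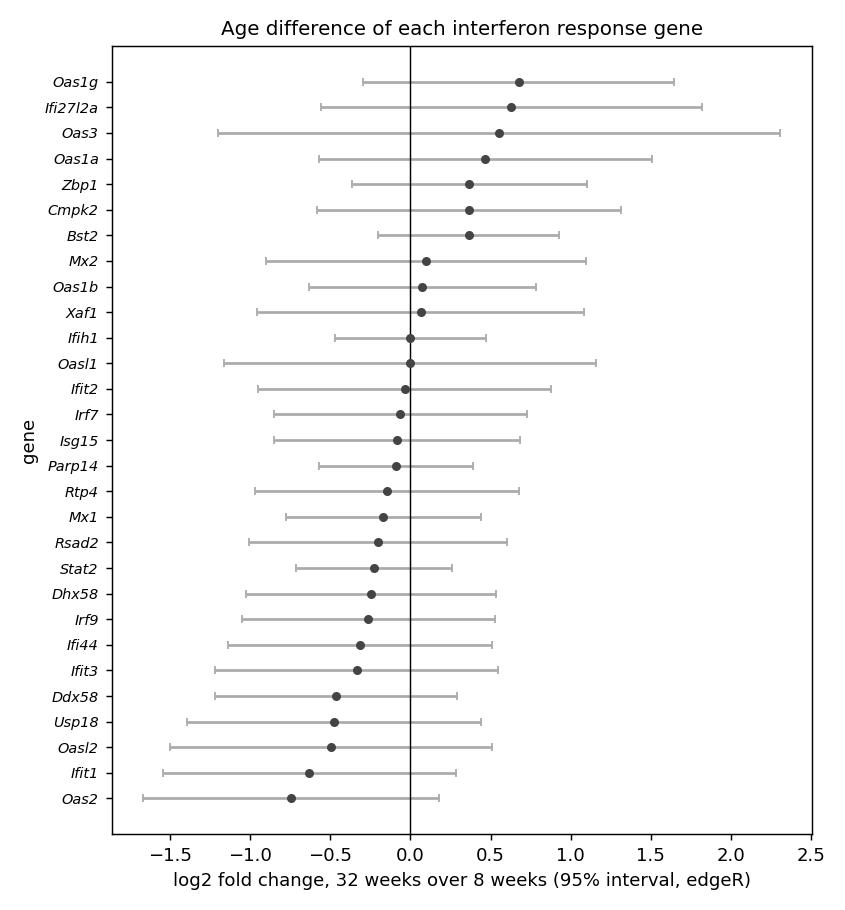
Log2 fold change of each gene, 32 weeks over 8 weeks, with its 95% interval from edgeR's quasi-likelihood fit. All 29 intervals cross 0, with point estimates from -0.75 (Oas2) to 0.68 (Oas1g).

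The signalling genes Stat2, Irf9 and Irf7 come first by role. Irf9, the DNA-binding part of ISGF3 (NCBIM37 chromosome 14, 56222408 to 56228867, plus strand), stood at 22.3 and 43.7 CPM in 8-week replicates 1 and 2 and at 32.7 and 22.5 CPM in 32-week replicates 3 and 4 (log2 fold change -0.26, SE 0.34, edgeR adjusted p = 0.999). Its lowest and highest libraries were both of 8 weeks, so the ages overlapped. Irf7, the factor that drives transcription of the interferon alpha genes and is itself a target (chromosome 7, 148448605 to 148452380), had 8.55 and 15.1 CPM in the younger libraries and 14.0 and 8.77 CPM in the older (log2 fold change -0.06, SE 0.34). As for Irf9, replicates 2 and 3 were the higher of their ages. Stat2, the transactivating part of ISGF3 (chromosome 10, 127707629 to 127729905), was flatter, at 23.9 and 24.5 CPM in the younger libraries and 23.5 and 17.8 CPM in the older. The 2 ages did not overlap for Stat2, but the difference (log2 -0.23, SE 0.21) did not pass, and 32-week replicate 4 alone was low.

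Cytosolic sensors of nucleic acid differed among themselves. Ddx58, which encodes RIG-I, a sensor of RNA ends that lack a normal cap (chromosome 4, 40150806 to 40186861), had 14.3 and 22.8 CPM in the younger libraries and 17.0 and 9.99 CPM in the older (log2 fold change -0.47, SE 0.32). Dhx58, which encodes LGP2, a regulator of the other RNA sensors, was at 4.2 and 6.69 CPM in the younger libraries and 5.32 and 3.89 CPM in the older. Both had their highest value in 8-week replicate 2 and their lowest in 32-week replicate 4. By contrast, Ifih1, which encodes MDA5, a sensor of long double-stranded RNA (chromosome 2, 62433850 to 62484312), ranged only from 15.3 to 18.9 CPM. Zbp1, a sensor of left-handed nucleic acid that can trigger necroptosis, had 2.58 and 2.97 CPM in the younger libraries and 3.87 and 3.31 CPM in the older, with no overlap (log2 fold change 0.37, SE 0.31). That difference did not pass, and it rests on 35 to 57 counts per library.

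Oligoadenylate synthetases make the messenger that activates RNase L, and the 7 family members measured here lie in 2 clusters on chromosome 5. In the first, at 115346943 to 115387924, Oasl2 and Oasl1 are neighbours on the plus strand. Oasl2 had 13.1 and 32.8 CPM in the younger libraries and 20.4 and 12.2 CPM in the older (log2 fold change -0.50, SE 0.43), with 8-week replicate 2 the highest by far. Oasl1, known as a translational repressor of Irf7, was at 0.760 to 1.28 CPM in all 4 libraries, on 11 to 22 counts each. The neighbours therefore differed in level per kb, at 6.29 ± 3.04 for Oasl2 against 0.469 ± 0.111 for Oasl1 (SD, n = 4), and in order over libraries.

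The second cluster, at 121180342 to 121357536, holds the remaining 5. Oas1a, an active synthetase, had 4.35 and 5.17 CPM in the younger libraries and 9.60 and 3.66 CPM in the older (log2 fold change 0.47, SE 0.45), so 32-week replicate 3 stood alone. Its copy Oas1g was also highest there, at 2.21 CPM, against 1.11 and 1.24 CPM at 8 weeks and 1.57 CPM in 32-week replicate 4, and how reads are divided between the copies is uncertain. Oas1b, a flavivirus resistance gene that carries a premature stop codon in most laboratory strains, C57BL/6 included, varied little, from 3.47 to 4.56 CPM. Oas2 was lower in both 32-week libraries (2.07 and 1.22 CPM) than in the 8-week libraries (2.73 and 2.76 CPM; log2 fold change -0.75, SE 0.39), on 21 to 40 counts, and did not pass. Oas3, with 10 and 4 counts at 8 weeks and 5 and 19 at 32 weeks, was the only member highest in 32-week replicate 4 and lowest in 8-week replicate 2.

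The IFIT genes, whose products bind foreign RNA by its cap or end, lie together on chromosome 19 (34625184 to 34724499, plus strand). Their order over the libraries was only partly shared. Ifit1 had 6.05 and 11.2 CPM in the younger libraries and 7.18 and 4.01 CPM in the older (log2 fold change -0.63, SE 0.39). Ifit3 had 7.52 and 6.14 CPM in the younger libraries and 7.39 and 3.49 CPM in the older (log2 fold change -0.34, SE 0.38). Ifit2 had 3.32 and 2.28 CPM in the younger libraries and 3.38 and 2.09 CPM in the older. All 3 were lowest in 32-week replicate 4, and each had a different highest library. For Ifit2 and Ifit3 that highest library is uncertain. Both had 8-week replicate 1 and 32-week replicate 3 as their higher libraries, at nearly level values (45 and 49 counts for Ifit2, 102 and 107 for Ifit3).

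Isg15, a ubiquitin-like protein attached to targets on interferon signalling (chromosome 4, 155573533 to 155574927, minus strand), stood at 3.17 and 3.73 CPM in the younger libraries and 3.80 and 2.73 CPM in the older, a 1.39-fold range over 43 to 55 counts. Usp18, which removes Isg15 and also restrains the receptor subunit Ifnar2 (chromosome 6, 121195924 to 121220934), ranged more widely. It had 11.7 and 24.1 CPM in the younger libraries and 16.6 and 9.30 CPM in the older (log2 fold change -0.48, SE 0.39), a 2.60-fold range. The Mx genes encode dynamin-like GTPases, and C57BL/6 mice carry an internally deleted Mx1 that yields no active protein. Mx1 RNA was nevertheless counted at 7.60 and 10.3 CPM in the younger libraries and 8.91 and 7.09 CPM in the older. Mx2 had 2.36 and 1.79 CPM in the younger libraries and 2.90 and 1.57 CPM in the older, and 4.77% of the Mx1 windows also occur in Mx2.

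Rsad2 and Cmpk2 are divergent neighbours on chromosome 12 (27127618 to 27164700) whose products act in sequence, Cmpk2 supplying the nucleotide that viperin, the product of Rsad2, converts into a chain terminator. Neither had the order most common among the members. Rsad2 had 2.43 and 2.55 CPM in the younger libraries and 1.93 and 2.38 CPM in the older. Cmpk2 had 1.47 and 1.24 CPM in the younger libraries and 2.0 and 1.51 CPM in the older. Their highest libraries differed, and both rest on 18 to 41 counts per library.

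Among the remaining effectors Ifi27l2a (chromosome 12, 104680377 to 104681890, minus strand) varied most after Oas3. It had 69.8 and 123 CPM in the younger libraries and 226 and 72.7 CPM in the older, on 946 to 3276 counts. Its age difference (log2 0.63, SE 0.51, edgeR adjusted p = 0.999) was -0.40 without 32-week replicate 3, so that library set its sign. Rtp4 had 21.2 and 34.6 CPM in the younger libraries and 33.2 and 17.4 CPM in the older, and Xaf1, a pro-apoptotic partner of XIAP, 5.60 and 10.3 CPM and 11.6 and 5.11 CPM in the same order. Ifi44 had 4.79 and 8.07 CPM in the younger libraries and 6.29 and 4.13 CPM in the older. In Rtp4, Xaf1 and Ifi44 replicates 2 and 3 were the 2 higher libraries. Bst2 was higher in both 32-week libraries (9.88 and 8.08 CPM) than at 8 weeks (6.42 and 7.52 CPM; log2 fold change 0.36, SE 0.24), without passing. Parp14, a mono-ADP-ribosyltransferase, was the steadiest of the 29, with a 1.18-fold range from 11.4 to 13.5 CPM.

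Most members shared the direction of their difference between libraries of the same age, though not always beyond counting error. To follow this, each gene's log2(CPM + 0.5) was set against its own mean over the 4 libraries. The median deviation of the 29 was -0.14 in 8-week replicate 1, 0.15 in 8-week replicate 2, 0.17 in 32-week replicate 3 and -0.31 in 32-week replicate 4, while the median over all genes tested was within 0.01 of 0 in each library. With 4 libraries a correlation between genes was not computed, and the order is given instead. The highest library was 8-week replicate 2 for 14 members and 32-week replicate 3 for 12, leaving 1 for 8-week replicate 1 (Ifit3) and 2 for 32-week replicate 4 (Oas3 and Oasl1). Among all genes tested these shares were 34.8%, 19.9%, 24.9% and 20.5% in that order. The lowest library was 32-week replicate 4 for 17 members (20.4% of all genes) and 8-week replicate 1 for 8 (23.4%).

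Particular orders were shared by groups of members. Stat2, Ddx58, Dhx58, Oas2, Oasl2, Ifit1, Usp18, Mx1, Rtp4 and Ifi44 were all highest in 8-week replicate 2 and lowest in 32-week replicate 4, an order seen in 11% of all genes. Ifih1, Oas1a, Ifit2, Isg15, Mx2 and Xaf1 ran from highest in 32-week replicate 3 to lowest in 32-week replicate 4, as did 5.20% of all genes. Zbp1, Oas1b, Oas1g, Ifi27l2a and Bst2 ran from highest in 32-week replicate 3 to lowest in 8-week replicate 1, as did 5.40%. These groupings take no account of counting error. Stat2 (23.9 and 24.5 CPM) and Oas2 (2.73 and 2.76 CPM), for example, were nearly level in the 2 libraries of 8 weeks.

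**Figure D3:**
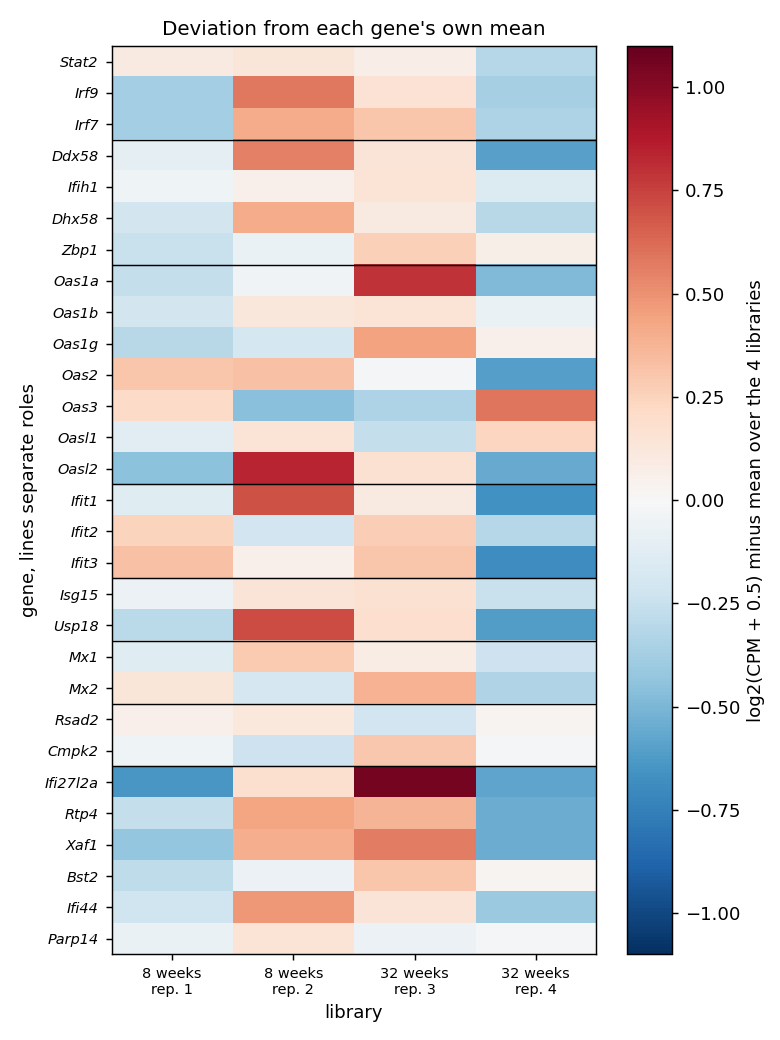
Deviation of each gene from its own mean over the 4 libraries, in log2(CPM + 0.5), by library, with the genes grouped by role. Red (above the mean) prevails in 8-week replicate 2 and 32-week replicate 3, where 21 and 24 of the 29 genes lie above their mean, and blue in 8-week replicate 1 and 32-week replicate 4, with 7 and 6 above.

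Set against its partner of the same age, 8-week replicate 2 was the higher for 24 of 29 members, where 49.9% of all genes tested were higher there. The exceptions were Ifit2, Ifit3, Mx2, Cmpk2 and Oas3. The median difference was 0.23 (log2), and the typical size of the difference, its median absolute value, was 0.33 for the members and 0.33 for all genes. At 32 weeks, replicate 3 was the higher for 25 of 29, where 48.5% of all genes were, and the exceptions were Oas3, Oasl1, Rsad2 and Parp14. There the median difference was 0.53, and the median absolute difference was 0.55 for the members against 0.18 for all genes. Replicate numbers carry no order, so these are differences between libraries and have no replicate check.

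Counting error was smaller than these differences for some members only. With exact 95% binomial intervals, which cover counting error only, the ratio of 8-week replicate 2 to replicate 1 lay above 1 for 12 members and below 1 for 0, where 24.4% and 25.3% of all genes did so. The ratio of 32-week replicate 3 to replicate 4 lay above 1 for 16 members and below 1 for 1 (Oas3), where 14.8% and 13.9% of all genes did so. The interval included 1 for 17 members at 8 weeks and for 12 at 32 weeks. Irf9, Irf7, Ddx58, Oasl2, Ifit1, Usp18, Ifi27l2a, Rtp4, Xaf1 and Ifi44 lay above 1 at both ages, and the matching share of all genes was not computed. Usp18 was 2.06-fold higher in replicate 2 than in replicate 1 (interval 1.70 to 2.50) and 1.78-fold higher in replicate 3 than in replicate 4 (1.45 to 2.19). For Ifi27l2a the ratios were 1.77 (1.63 to 1.91) and 3.11 (2.91 to 3.32), and for Oasl2 2.50 (2.10 to 2.98) and 1.68 (1.40 to 2.01).

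**Figure D4:**
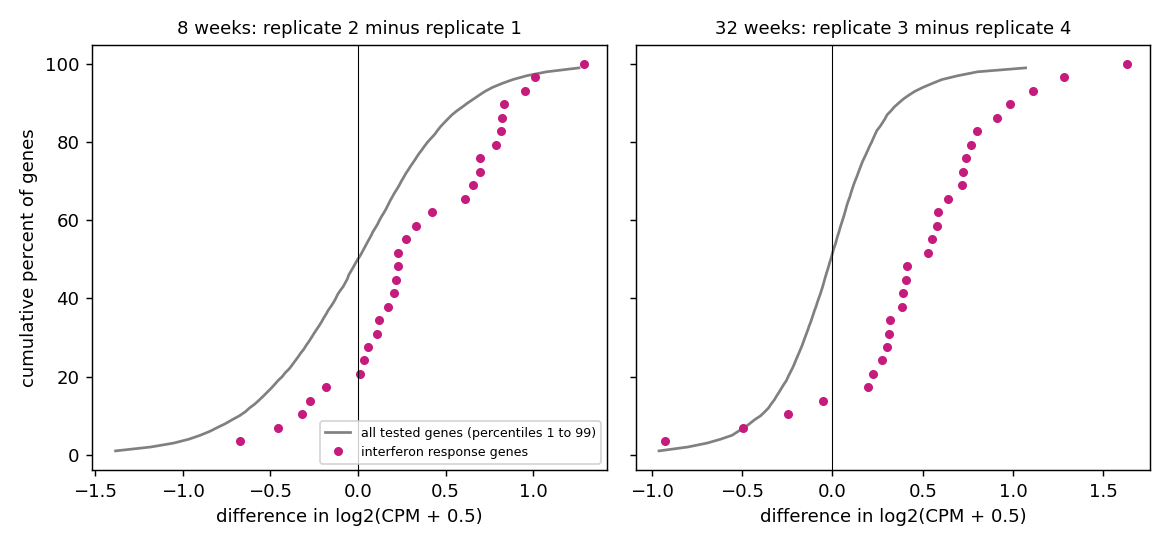
Cumulative share of genes by the difference in log2(CPM + 0.5) between the 2 libraries of an age, 8 weeks on the left and 32 weeks on the right; the grey line is all tested genes and the points are the 29 members. The points lie to the right of the line over most of their range, with medians of 0.23 and 0.53 where the line crosses near 0.

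The order over libraries was also examined under another scaling. With total counts in place of TMM the median deviation of the members in 32-week replicate 3 was -0.01 in place of 0.17. The median of all genes moved to -0.17 there, and relative to it the members stood at 0.16. Replicate 3 was then the higher for 23 of 29 members at 32 weeks, where 16.2% of all genes were, and replicate 2 for 22 at 8 weeks, where 46.5% of all genes were. Under total counts 6 members rather than 12 had their highest value in 32-week replicate 3. That count has no matching share of all genes beside it, and the median of all genes also moved down in that library.

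Cell type markers and a measure of ribosomal RNA also differed between these libraries. The macrophage and dendritic cell list (12 of 13 markers tested, none at 0 in all libraries) summed to 265 and 159 CPM at 8 weeks and to 191 and 268 CPM at 32 weeks. The T cell and NK cell list (4 of 10 tested, none at 0 in all, Cd3e and Cd8a at 0 in 32-week replicate 3) summed to 12.9 and 4.76 CPM at 8 weeks and to 4.77 and 9.06 CPM at 32 weeks. B cell and plasma cell markers (7 of 9 tested, none at 0 in all) summed to 1632 and 530.0 CPM and to 1285 and 1455 CPM. Each of these 3 sums was thus lower in replicates 2 and 3, the libraries in which the interferon response genes were the higher of their age. The B cell and plasma cell sum was mostly Jchain and Xbp1. At 32 weeks 2 of the 7 tested markers of that list were higher in replicate 3 than in replicate 4, Xbp1 (751 and 627 CPM) and Mzb1 (11.3 and 10.2 CPM). Mast cell and granulocyte markers (4 of 9 tested, Elane at 0 in all) had median deviations of 0.42 and -0.48 in the younger and -0.58 and 0.67 in the older libraries, while their sum ran the other way (14.2 and 24.7 CPM, then 15.9 and 12.3 CPM). Most of that sum was Kit (10.6 and 23.6 CPM, then 14.7 and 7.32 CPM). Tpsb2, Cma1 and Mcpt4, the other tested markers, were lower in replicates 2 and 3 than in their partners, on 1 to 32 counts per library. Markers of plasmacytoid dendritic cells, the main producers of interferon alpha (2 of 6 tested, none at 0 in all), summed to 4.62 to 5.09 CPM at 8 weeks and 4.84 to 5.17 CPM at 32 weeks. Most of that sum was Pacsin1, with 41 to 49 counts per library, while Siglech had 6 to 17 counts, Cox6a2 was at 0 in 32-week replicate 3 and Klrb1f at 0 in 8-week replicate 2.

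Gland cell markers were also compared. Acinar and demilune markers (10 of 10 tested) had median deviations of -0.20 and 0.18 in the younger libraries and of 0.39 and -0.17 in the older. These had the same signs as those of the interferon response genes. Within ages, 7 of the 10 were higher in replicate 2 than in replicate 1, and 8 of the 10 in replicate 3 than in replicate 4. Not all moved alike: Smgc, a secretory product of the gland, ran from 141970 and 73222 CPM in the younger to 41944 and 125724 CPM in the older. Duct markers (7 of 7 tested) had -0.15 and 0.61 in the younger and -0.07 and -0.28 in the older. Endothelial cell markers (8 of 8 tested) had -0.24 and 0.09 and then 0.06 and 0.11, and fibroblast markers (6 of 6 tested) 0.05 and -0.04 and then 0.37 and -0.27. At 8 weeks replicate 2 was the higher for 6 of the 7 duct, 6 of the 8 endothelial and 3 of the 6 fibroblast markers. At 32 weeks replicate 3 was the higher for 5, 3 and 6 of them, in that order. The ribosomal RNA precursor Rn45s made up 3.69% and 1.40% of the younger and 2.24% and 3.38% of the older libraries' counts. In a whole gland, fewer cells of a type and less RNA per cell cannot be told apart, and the part of these markers in the interferon response values was not tested.

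**Figure D5:**
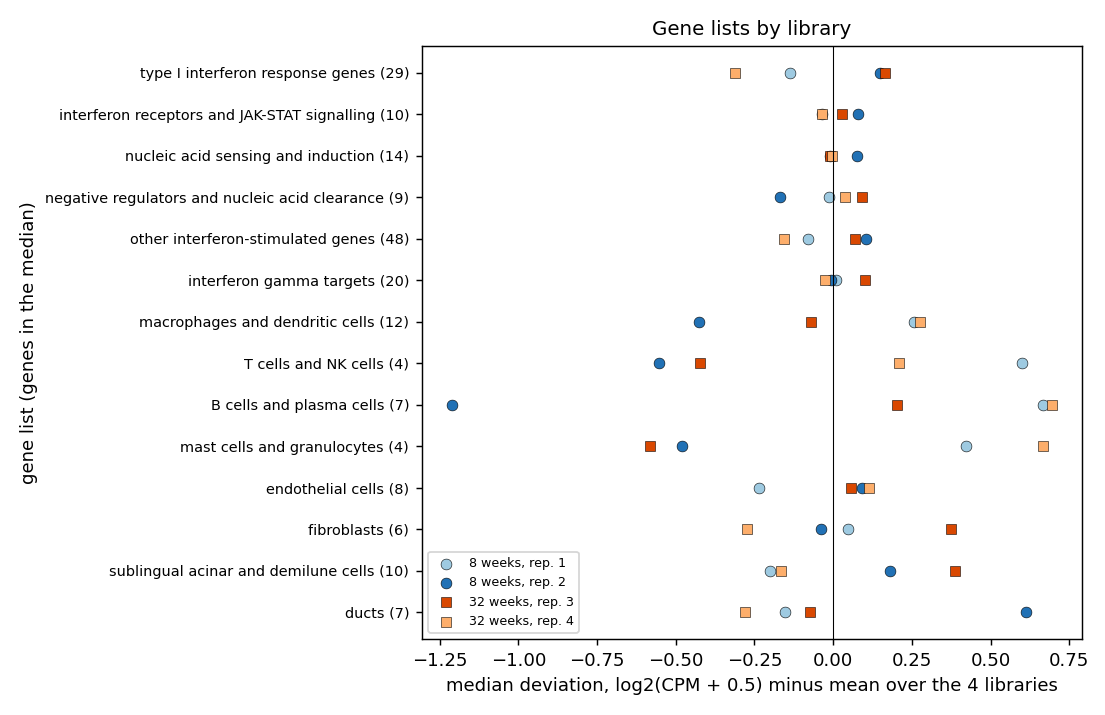
Median deviation (log2, from each gene's own mean over the 4 libraries) of the interferon response genes, the other pathway lists and the cell type lists with at least 4 tested genes, by library; circles are the 8-week and squares the 32-week libraries. The interferon response genes run from -0.31 to 0.17, and the T cell and NK cell list runs from -0.55 in 8-week replicate 2 to 0.60 in 8-week replicate 1, and within each age its higher library is the one in which the members are lower. The acinar and demilune list has medians of the same sign as the members in each library.

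The rest of the pathway was then examined, from the ligands down. Of 21 interferon genes of types I, II and III, 18 had 0 counts in all 4 libraries, among them Ifnb1, the 13 listed Ifna genes, Ifnab, Ifne, Ifnl2 and Ifnl3. A count of 0 allows up to 3 counts, or 0.174 to 0.221 CPM by library, and transcripts of these 18 genes were not detected. For any of them that share sequence with another gene that bound need not hold, since how shared reads were counted was not given. Ifnk, an epithelial type I interferon, had 12 and 2 counts at 8 weeks and 9 and 5 at 32 weeks. Ifng had 2 and 1 counts at 8 weeks and 0 and 1 at 32 weeks, and Ifnz 1 count in all.

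Receptor and kinase genes were all detected. None of the 10 receptor and JAK-STAT genes passed the age test (5 positive, 5 negative, median log2 fold change 0.01). Jak1, the kinase bound to Ifnar2, was the most abundant by counts, at 99.5 and 79.1 CPM in the younger libraries and 91.9 and 92.4 CPM in the older. Il10rb, a receptor subunit for type III interferon, stood at 28.3 and 32.4 CPM in the younger libraries and at 29.6 and 26.1 CPM in the older, so replicates 2 and 3 were its higher libraries. Of the 10 genes, 6 were higher in replicate 2 than in replicate 1, and 5 were higher in replicate 3 than in replicate 4.

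Upstream of the ligands, none of 14 tested sensing and induction genes passed (6 positive, 8 negative, median -0.11). Mavs, the mitochondrial adaptor of RIG-I and MDA5, had 33.5 and 45.9 CPM in the younger libraries and 33.8 and 36.8 CPM in the older. Trim25, a ubiquitin ligase that supports RIG-I, had 19.5 and 23.9 CPM and 24.0 and 20.2 CPM. Tbk1, the kinase that activates Irf3, had 15.2 and 21.3 CPM and 17.2 and 17.8 CPM. Negative regulators and nucleic acid clearance genes did not pass either (0 of 9 tested; 5 positive, 4 negative, median 0.01). The most abundant of them were Pias1, a SUMO ligase (28.2 and 47.5 CPM at 8 weeks, 25.8 and 28.1 CPM at 32 weeks), Ptpn6, a phosphatase of blood cell receptors (19.8 to 20.3 and 17.5 to 22.0 CPM), and Adar, which edits double-stranded RNA (14.9 to 22.4 and 17.8 to 19.8 CPM).

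A further list of other interferon-stimulated genes had 48 of 54 genes tested, and none passed (21 positive, 27 negative, median -0.04). Their median deviations were -0.08 and 0.11 in the younger and 0.07 and -0.16 in the older libraries, of the same signs as those of the 29 members and smaller. Within ages, 28 of the 48 were higher in replicate 2 than in replicate 1, and 31 of the 48 were higher in replicate 3 than in replicate 4. Ly6e, a membrane protein with antiviral action, was at 651 and 879 CPM in the younger libraries and 715 and 853 CPM in the older. Ifitm2, a membrane restriction factor, was at 190 and 239 CPM and at 265 and 194 CPM. Isg20, an RNA exonuclease, was at 193 and 112 CPM and at 153 and 153 CPM. Only Ifitm2 of these had replicates 2 and 3 as its 2 higher libraries.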

How the data were processed

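RNA was extracted with Trizol from flash-frozen sublingual glands, and an Illumina TruSeq RNA kit was used for the libraries, per the labels' protocols. Reads were aligned with STAR to mm9, per the submitters' processing notes; the STAR version, counting tool, annotation, strand setting and treatment of reads with several positions were not given in the sources used here. Whole-number read counts per gene symbol, without normalization, were deposited by the authors.

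From these counts, edgeR 4.0.16 (R 4.3.3) gave the quasi-likelihood test of age over all genes kept by its default filter, with TMM factors and Benjamini-Hochberg adjustment (threshold 0.05). With 2 libraries against 2, an exact permutation test of a single value cannot reach that threshold. CPM values are TMM-scaled, and deviations use a pseudocount of 0.5 CPM. Positions and transcript lengths come from GENCODE vM1 (NCBIM37, the assembly of mm9), promoters from RefSeq on GRCm38.p6, a different build. Members were named in full, and from every other list the 3 genes with the highest mean CPM, as none passed; 1 gene that this rule selects is not reported here. The members and lists were chosen with earlier results of these data known. Alternatives were other scalings, filters, DESeq2 1.42.0, limma-voom (limma 3.58.1) and leaving out each library. The fit was also run on simulated counts, with changes larger than those fitted for any member. That run therefore does not bear on differences of the size seen here.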

Additional observations from a re-analysis of the deposited data

How the results depend on the processing

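No interferon response gene was called under any alternative, and the smallest adjusted p of a member was 0.0843 (Oasl2, edgeR without 8-week replicate 1). Of all genes, 10 were called with total counts only, 7 with no low-count filter, 3 with DESeq2, and 6 to 284 with 1 library left out. With 1 library left out the median log2 fold change of the members ran from -0.40 to 0.13, and 6 to 21 members were positive. Of 317 fold changes of single members under the alternatives, 37 had the opposite sign, in 20 genes, and 15 of these genes changed sign only with a library left out. The cause was not tested. Where an age is left with 1 library, that library is assumed to vary like those of the other age. Outside the left-out libraries the values of opposite sign were all small: Ifih1 was at 0.0012 with RLE factors, 0.0062 without the 10 most abundant genes and 0.0036 with DESeq2, Oasl1 was at 0.0034 without the 10 most abundant genes, Oas1b, Mx2 and Xaf1 were at -0.018, -0.021 and -0.063 with total counts only, and Xaf1 was at -0.016 with limma-voom. With 1 library left out, log2 fold changes ran from -0.67 to 0.31 for Irf9, -0.42 to 0.41 for Irf7, -0.15 to 0.15 for Ifih1, -0.54 to 0.13 for Dhx58, -0.37 to 1.01 for Oas1a and -0.10 to 0.28 for Oas1b. They ran from -0.53 to 1.40 for Oas3, -0.43 to 0.32 for Oasl1, -1.01 to 0.31 for Oasl2, -0.41 to 0.28 for Ifit2, -0.96 to 0.12 for Ifit3, -0.33 to 0.14 for Isg15 and -0.94 to 0.14 for Usp18. The ranges were -0.37 to 0.078 for Mx1, -0.39 to 0.49 for Mx2, -0.40 to 1.23 for Ifi27l2a, -0.67 to 0.26 for Rtp4, -0.63 to 0.57 for Xaf1, -0.64 to 0.12 for Ifi44 and -0.20 to 0.039 for Parp14. The other 9 members kept their sign under every alternative run. The median deviation of the members in 32-week replicate 3 went from 0.17 to -0.01 with total counts only, where the median of all genes moved to -0.17. No paired analysis was possible because the ages share no replicate number. Counts per library limit the least abundant members, with 4 to 19 counts for Oas3.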

Other observations

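Interferon gamma targets were compared with the type I list over the same libraries, without a test of the difference. Of 22 genes 20 were tested, none passed the age test, and the median deviations were 0.01 and -0.01 in the younger (8-week) and 0.10 and -0.03 in the older (32-week) libraries. Within ages, 11 of the 20 were higher in replicate 2 than in replicate 1 and 14 of the 20 were higher in replicate 3 than in replicate 4. H2-K1, a classical MHC class I heavy chain, was at 317 and 336 CPM in the younger libraries and 413 and 363 CPM in the older. B2m, the light chain, was at 298 and 189 CPM and at 300.4 and 253 CPM, lowest in 8-week replicate 2, where the interferon response genes were high. H2-D1, a further class I heavy chain, was at 141 and 112 CPM and at 181 and 169 CPM. Irgm1, an immunity-related GTPase chosen after its values were seen, was at 25.3 and 53.5 CPM in the younger libraries and 40.1 and 21.3 CPM in the older, which is the order of Usp18 and Oasl2.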
